A study of Mus musculus with 8 samples.

Results

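The regions described here are stretches of open chromatin that were called as peaks everywhere in a set of mouse squamous cell carcinoma (SCC) lines except in cells carrying a FAK mutant whose nuclear localization is impaired. FAK (focal adhesion kinase, encoded by Ptk2) is a cytoplasmic tyrosine kinase that relays signals from integrins, and part of it enters the nucleus. The regions were chosen by the peak calls themselves: all peaks of 8 ATAC-seq libraries on the autosomes and on chromosomes X and Y were merged where they shared at least 1 bp, and a member was called in all 6 libraries of FAK-WT, FAK-/- and FAK-kd cells and in neither FAK-nls library. Of 69399 merged regions, 2860 (4.12%) met this rule, and they covered 2333612 bp. They made up 11.5% of the 24772 regions called in the 6 libraries outside FAK-nls. Because the calls chose the members, their absence in FAK-nls cells and everything that follows the strength of a call is given as a description, without a test.

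All 4 lines came from cutaneous SCCs with a Ha-Ras driver, raised by DMBA and TPA in FVB mice of the genotype K14CreER FAKflox/flox, in which keratin 14 sequences drive a tamoxifen-inducible Cre. FAK-/- cells had lost FAK after 4-hydroxytamoxifen in culture and served as the control. The other 3 lines were made by retroviral transduction of a single FAK-/- clone with FAK-WT, with the nuclear localization mutant FAK-nls (R177A, R178A, R190A, R191A, R216A and R218A) or with the kinase-dead mutant FAK-kd (K454R), so each line is 1 derivative of the same clone. Each line had 2 biological replicates, and the comparison asks which regions were called with FAK absent, wild-type or kinase-dead but not with FAK-nls. Since FAK-/- cells lack FAK altogether and have these calls, it does not isolate nuclear FAK. As a check of the cell type, the promoters of 11 keratinocyte markers were examined: only Itga6 was called in all 8 libraries, and 8 of them, among which Krt5, Trp63, Cdh1 and Epcam, were called in none, whereas 2 of 5 fibroblast marker promoters (Col1a1 and Pdgfra) and 2 of 4 of melanocytes (Mitf and Pmel) were called in all 8, and the fibroblast markers Dcn and Lum and the melanocyte markers Tyr and Dct in none.

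In ATAC-seq, Tn5 transposase cuts and tags DNA that is not wrapped tightly in nucleosomes, so that reads pile up at active promoters and enhancers. Enhancers lie mostly in introns and between genes and carry short binding motifs of transcription factors. AP-1, a dimer of Jun and Fos family proteins, binds one of the commonest of these motifs in epithelial and mesenchymal cells, and CTCF binds a longer motif at sites that anchor chromatin loops.

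The members with the highest peaks are given as examples from the strong end of the set, and most members are weaker. Their sequences are given first, because the AP-1 motif recurs in the results. The central 200 bp of the 6 strongest members outside annotated exons that were selected for printing are given 5′ to 3′ on the plus strand of GRCm38/mm10 from the RefSeq genome, with capitals marking TGAGTCA or its reverse complement TGACTCA, the core AP-1 motif. Strength was ranked by the worst rank of the −log10 p-value over the 6 libraries. The motif is present in 5 of the 6 windows. Over all members it was in 28.7% of such 200 bp windows, and over regions called in all 8 libraries in 19.9%.
Prg2 region, chr2:84961491-84961690: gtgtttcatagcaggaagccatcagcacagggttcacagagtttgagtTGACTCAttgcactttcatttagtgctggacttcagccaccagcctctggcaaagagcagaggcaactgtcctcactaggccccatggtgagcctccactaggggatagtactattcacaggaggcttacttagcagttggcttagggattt
Gm29229 region, chr2:161513215-161513414: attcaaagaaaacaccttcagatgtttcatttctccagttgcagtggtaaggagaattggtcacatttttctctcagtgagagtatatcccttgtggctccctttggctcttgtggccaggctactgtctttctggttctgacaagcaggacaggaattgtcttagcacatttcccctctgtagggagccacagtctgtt
Gm47906 region, chr14:24793778-24793977: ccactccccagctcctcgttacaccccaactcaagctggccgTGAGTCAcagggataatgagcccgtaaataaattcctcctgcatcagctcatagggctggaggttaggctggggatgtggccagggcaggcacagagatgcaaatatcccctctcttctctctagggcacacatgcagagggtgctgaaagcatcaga
4931423N10Rik region, chr2:23213788-23213987: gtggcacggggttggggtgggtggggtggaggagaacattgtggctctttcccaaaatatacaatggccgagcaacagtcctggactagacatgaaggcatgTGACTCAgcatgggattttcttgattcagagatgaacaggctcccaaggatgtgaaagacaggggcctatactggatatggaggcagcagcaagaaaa
Gm15644 region, chr6:67014706-67014905: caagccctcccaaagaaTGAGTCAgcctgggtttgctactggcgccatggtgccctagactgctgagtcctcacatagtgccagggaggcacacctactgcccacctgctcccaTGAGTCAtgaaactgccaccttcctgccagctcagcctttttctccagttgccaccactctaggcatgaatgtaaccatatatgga
Gm42568 region, chr3:67490223-67490422: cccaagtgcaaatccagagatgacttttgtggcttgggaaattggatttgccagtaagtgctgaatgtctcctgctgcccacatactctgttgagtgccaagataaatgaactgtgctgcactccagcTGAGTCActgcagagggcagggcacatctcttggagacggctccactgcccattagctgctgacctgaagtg

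The strongest member lay between genes, upstream of the nearest transcription start site, that of Prg2, which encodes the major basic protein of eosinophils. Its fold enrichment, the peak's pileup of reads over the local background of the same library, was 6.32 and 5.20 in the FAK-WT libraries, 6.30 and 5.47 in FAK-/- and 6.69 and 6.40 in FAK-kd. The FAK-WT and FAK-/- values overlapped, both FAK-kd values lay above them, and the nearest FAK-nls peak was 39.3 kb away. The member in an intron of Gng12, which encodes a G protein gamma subunit (nearest start site Gm15644), reached 7.71 and 5.54 in FAK-WT, 6.10 and 5.49 in FAK-/- and 5.40 and 6.56 in FAK-kd. A member in an intron of Amotl2, which encodes an angiomotin family protein that binds YAP, had a lower fold enrichment, from 4.36 in FAK-kd replicate 1 to 5.80 in FAK-kd replicate 2. Others of the 12 strongest lay in introns of Rarres1, a gene that responds to retinoic acid, of Pi4kb, a lipid kinase, and of Diaph1, a formin that builds actin filaments. Of these 12, 8 were intronic, 3 intergenic and 1 in a promoter, and 8 had the AP-1 motif in their central 500 bp. Over all members 45.5% had it there.

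The FAK-nls libraries differed from the rest in ways that bear on any missing call. They held 24383 and 24959 peaks on the chromosomes used, against 32938 to 53703 in the other 6. Read counts per region were not used here, and a relative depth was taken from the peak lists. The background coverage implied by pileup and fold enrichment was 0.742 and 0.651 reads in FAK-nls and 0.995 to 1.29 in the others. This order is not that of sequencing: in the study's own statistics, whose values are not used here, both FAK-nls libraries have more mapped reads than both FAK-kd libraries, and the highest shares of duplicates of all. In regions called in all 8 libraries the median pileup was 10.1 reads in both FAK-nls libraries and 15.3 to 23.8 in the others. Divided by the background, these medians were 13.6 and 15.5 in FAK-nls, within the 12.7 to 19.1 of the others. The lowest peaks that were still called stood higher above background in FAK-nls: the 5th percentile of pileup over background was 7.21 and 8.26, against 5.15 to 5.49 elsewhere. The low end of the FAK-nls lists thus stood at a higher multiple of background than that of the other 6. The part of this in the missing calls was not tested beyond the settings given with the counts.

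Members were weaker than regions called in all 8 libraries, in each of the 6 libraries. The median fold enrichment of the members was 4.74 and 3.91 in FAK-WT, 4.08 and 3.85 in FAK-/- and 3.81 and 4.39 in FAK-kd. That of the 17917 regions called in all 8 libraries was 5.59 and 4.83, 4.97 and 4.66, and 4.70 and 5.53 in the same order. The ratio of the medians was 0.818 ± 0.018 (SD, n = 6 libraries), with little difference between libraries. Outside promoters the ratio was 0.807 ± 0.016 (SD, n = 6). By pileup it was 0.610 ± 0.041 and by −log10 p 0.612 ± 0.029 (SD, n = 6), so the gap was wider on both of these scales.

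**Figure D1:**
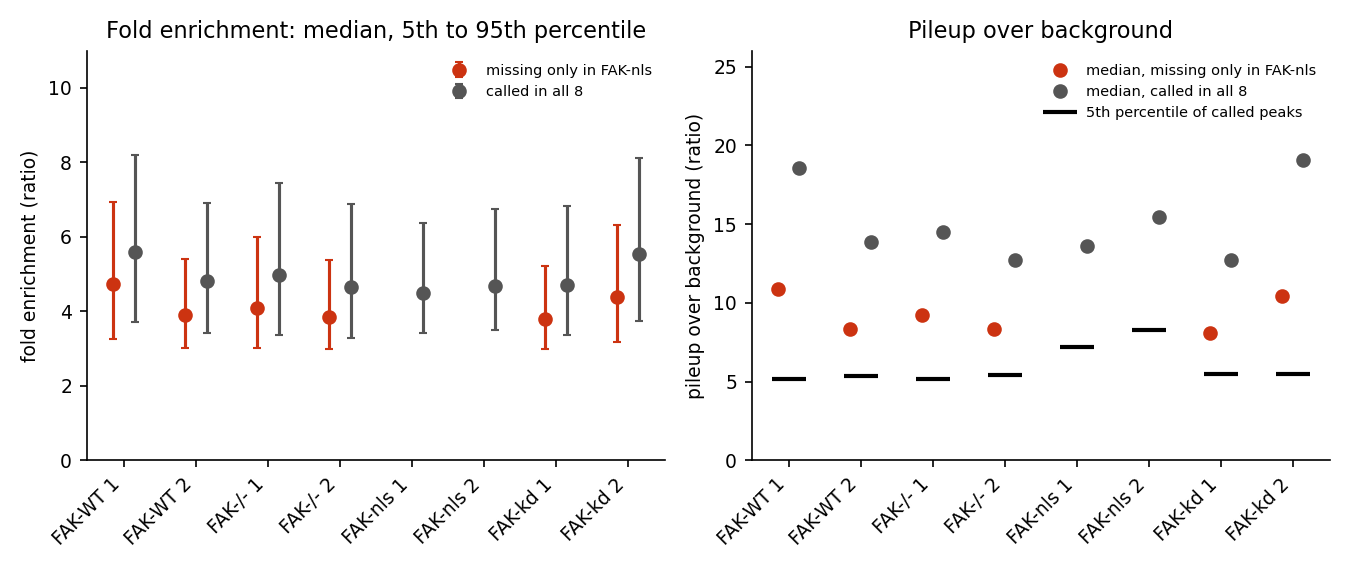
Left, fold enrichment in each library, as the median (point) and the 5th to 95th percentile (bar) of the 2860 regions missing only in FAK-nls and of the 17917 regions called in all 8. Right, median pileup over background of both sets and the 5th percentile over all called peaks of each library. The 5th percentiles of FAK-nls are 7.21 and 8.26, and the member medians in the other libraries are 8.06 to 10.9.

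The distributions overlapped widely all the same. Of the members, 1537 (53.7%) were below the median of the regions called in all 8 in every one of the 6 libraries, and 35 (1.22%) were above it in all 6, against 26.1% of the regions called in all 8. On the scale of pileup over background, 757 members (26.5%) exceeded 8.26, the higher of the 5th percentiles of the FAK-nls peak lists, in all 6 libraries, whereas 78.8% of the regions called in all 8 did. Only 46 members (1.61%) exceeded 13.6, the higher median of the FAK-nls peak lists, in all 6. Of the regions called in all 8, 31.6% did. Of the regions also called in 1 FAK-nls library, 38.5% exceeded 8.26 and 3.45% exceeded 13.6 in all 6. Since 8.26 is a 5th percentile, it marks the low end of the calls of that library. Whether the FAK-nls libraries would call peaks of the height of the 757 was not tested.

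Regions just outside the rule had values close to those just inside. The lowest −log10 p over the 6 libraries had a median of 4.43 in members, 4.87 in the 3995 regions that were also called in 1 FAK-nls library and, over the 5 libraries that had a call, 4.12 in the 2944 regions with no FAK-nls call and only 5 of the 6 others. It was 7.25 in regions called in all 8. Of the 3995, 1828 were called in FAK-nls replicate 1 alone and 2167 in replicate 2 alone. Of the 2944, the missing library was FAK-kd replicate 1, the one with the fewest peaks of the 6, in 1275 regions and FAK-WT replicate 1, the one with the most, in 24. Members were also shorter, with a median of 705 bp against 1001 bp in regions called in all 8.

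To see how the share of missing regions followed strength, the 24772 regions called in the 6 libraries were ranked by fold enrichment within each library and split into 5 classes of equal size by their mean rank. Not called in FAK-nls were 1173 regions (23.7%, Wilson 95% interval 22.5 to 24.9) of the weakest class, then 17.3%, 11.1% and 4.56%, and 52 regions (1.05%, 0.801 to 1.37) of the strongest. With strength taken by −log10 p the strongest class had 6 such regions (0.121%), and by pileup over background 30 (0.605%). The other lines served as the background for a missing call. By the same rule 33 regions were missing only in FAK-WT, 72 only in FAK-/- and 42 only in FAK-kd, which were 0.182%, 0.392% and 0.229% of the regions called in the 6 libraries of the lines other than the named one. Their shares were also highest in the weaker classes, with 0.386%, 0.872% and 0.408% in the weakest. FAK-nls exceeded the other lines in every class. In the strongest class the others had 2, 0 and 0 such regions. These counts each use different regions and share libraries, so they stand side by side and were not tested. When FAK-nls replicate 1 or 2 was left out, the strongest class of FAK-nls had 2.58% or 3.61% not called.

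**Figure D2:**
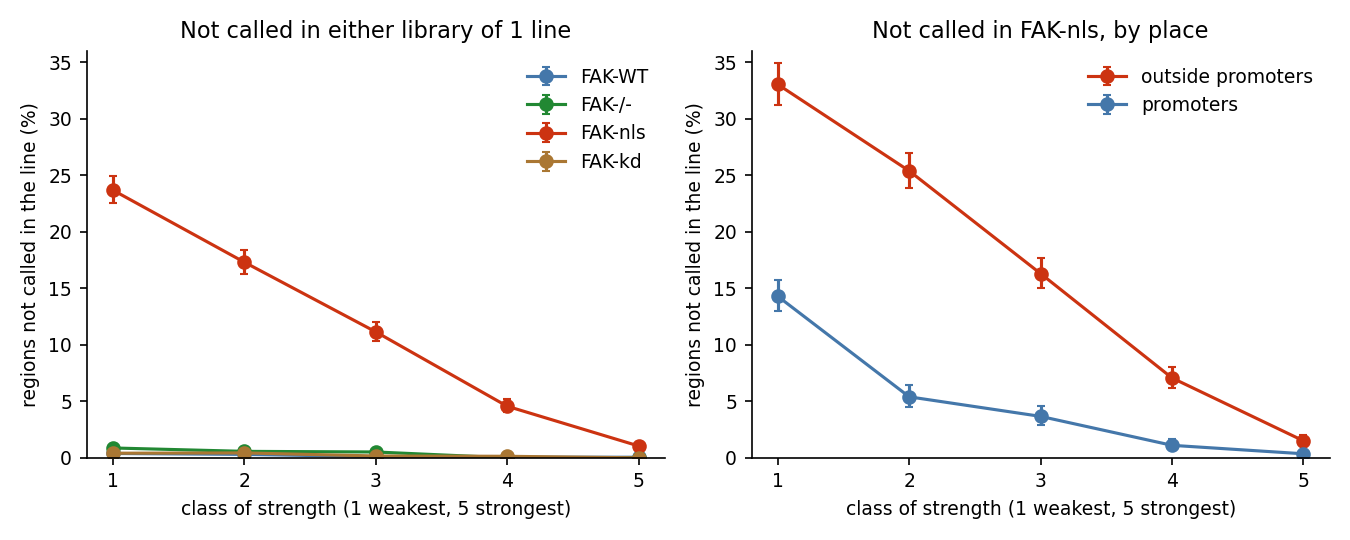
Percent of regions not called in either library of 1 line, by class of strength in the other 6 libraries, with Wilson 95% intervals; left for each line, right for FAK-nls in and outside promoters. The FAK-nls share falls from 23.7% to 1.05%, and lies higher outside promoters in every class.

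Evening out the peak lists left fewer members. When each library was cut to its 24383 peaks of highest −log10 p, as many as the shortest list holds, 415 regions were missing only in FAK-nls, 160 only in FAK-WT, 164 only in FAK-/- and 113 only in FAK-kd. As shares of the regions called in the other 6 libraries these were 2.81%, 1.14%, 1.16% and 0.813%. Of the 415 regions, 402 (96.9%) overlapped a member, and these were 14.1% of the 2860. This overlap follows largely from the cut, which leaves FAK-nls replicate 1 whole and FAK-nls replicate 2 nearly so. The other lists only lose peaks by it. With a common floor of 8.26 on pileup over background, a setting added after the data had been seen, the counts were 866 for FAK-nls, 47 for FAK-WT, 210 for FAK-/- and 47 for FAK-kd. Of the 866 regions 757 (87.4%) overlapped a member, which were 26.5% of the members. A member above 8.26 in all 6 other libraries passes this floor, so these 757 repeat the count given earlier and are no separate result. FAK-nls had the most missing regions of the 4 lines under both settings.

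**Figure D3:**
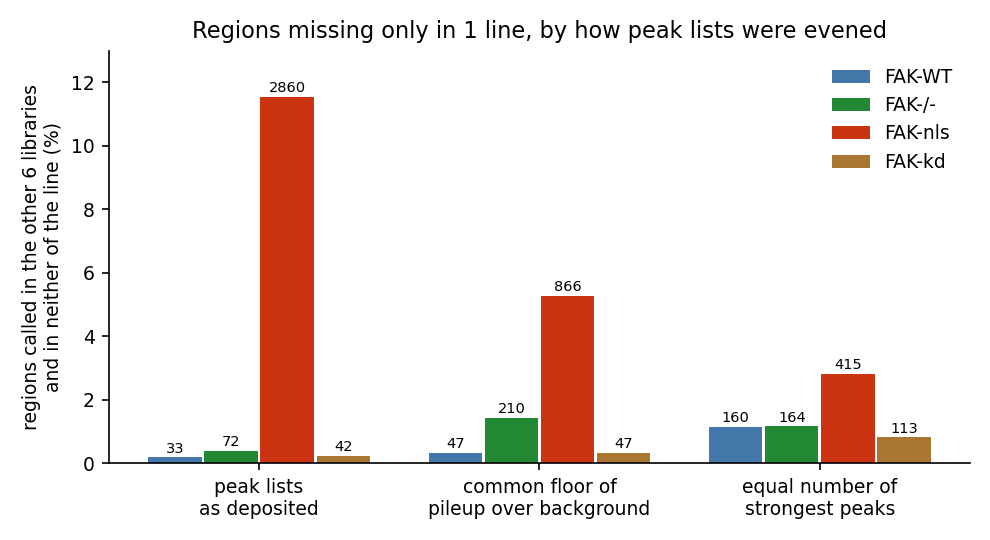
Regions called in all 6 libraries of the other lines and in neither library of the line named, as a percent of the regions called in those 6 (bar height) and as a count (number above the bar), with the peak lists as deposited, with a common floor and with an equal number of peaks. FAK-nls has 2860, 866 and 415 such regions.

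Members lay mostly away from promoters. A promoter was taken as 500 bp upstream to 2000 bp downstream of a GENCODE vM21 transcription start site. The centre of 565 members (19.8%, Wilson 95% interval 18.3 to 21.2) was in one, against 27.9% of regions also called in 1 FAK-nls library, 49.4% of regions called in all 8 and 24.0% of all regions. A further 40.8% were in introns, 36.9% between genes and 2.55% in exons outside promoters. With a minimum −log10 q of 3 the promoter share of the regions then meeting the rule was 32.1%, against 54.6% of those called in all 8. The share not called in FAK-nls was also compared within classes of strength. In the weakest class 33.0% of regions outside promoters and 14.3% of promoters were missing, in the second 25.4% and 5.40%, in the third 16.3% and 3.67%, in the fourth 7.06% and 1.11%, and in the strongest 1.5% and 0.357%. The order was the same in each class.

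Base composition moved with place. Outside promoters the median GC content of the central 500 bp was 47.6% in members and 46.6% in regions called in all 8. The share missing in FAK-nls there rose from 13.1% of regions under 40% GC to 19.9% of those with 50 to 55%, and was 10.1% above 60%. Among promoters it was 15.2% under 40% GC and 2.64% above 60%. The part that GC content has in the missing calls was not tested.

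Among promoters of protein-coding genes the strongest member was that of Popdc2, which encodes a cAMP-binding membrane protein of muscle (chr16:38368293-38368821). Its fold enrichment was 8.89 and 7.01 in FAK-WT, 6.55 and 5.50 in FAK-/- and 4.43 and 9.05 in FAK-kd, so the lowest and the highest value were those of the FAK-kd replicates. The promoter of Apbb1ip, whose product RIAM links Rap1 to talin and integrins, stood at 4.14 and 6.13, 6.15 and 5.76, and 4.10 and 4.24 in the same order. The promoters of Fez1, a kinesin adaptor, Synj2, an inositol phosphatase, and Egln2, a HIF prolyl hydroxylase, had values between 3.73 and 6.13. Pald1, Anxa8, Mdp1, Magix and Shld2 completed the 10 strongest. Promoter members of protein-coding genes belonged to 455 genes. Of the 52 members in the strongest class 7 were in promoters, among them those of Stx6, a SNARE protein of the trans-Golgi, Ccser2 and Shld2.

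Members were spread over the genome. They were between 8.71% (chromosome 13) and 14.1% (chromosome 14) of the regions called in the 6 libraries on each chromosome, apart from chromosome Y with 0 of 2. The median distance to the nearest FAK-nls peak was 12.6 kb. A FAK-nls peak lay within 1 kb of 49 members, and 351 members (12.3%) were over 50 kb from one. Taking neighbouring regions called in the 6 libraries, 2210 members stood alone, 263 runs held 2, 31 held 3, 6 held 4 and 1 held 7.

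The run of 7 lay on chromosome 14 (chr14:34080330-34297552, 217.2 kb). It held an intronic region near Gm49129 and a region in the promoter window of Anxa8, which encodes a calcium-dependent phospholipid-binding annexin. Next came a region in an intron of A630023A22Rik, one near Gm24998 and one upstream of Npy4r, a receptor for pancreatic polypeptide. The last were a region near Gm49201 and the promoter of Shld2, a subunit of the shieldin complex of DNA break repair. The Shld2 promoter was in the strongest class, with a fold enrichment of 7.48 and 4.71 in FAK-WT, 7.24 and 6.43 in FAK-/- and 9.03 and 6.53 in FAK-kd. The Anxa8 region was weaker and even, between 4.13 and 5.45. Its centre lay 1961 bp downstream of the Anxa8 start, near the end of the promoter window. A region centred at -104 bp from that start was called in FAK-WT replicate 2 alone (2.74) and was no member. The run sat in a stretch of 811 kb without a FAK-nls peak (chr14:33499205-34310222 from the end of one FAK-nls peak to the start of the next). In it FAK-WT had 17 and 13 peaks, FAK-/- 15 and 8, and FAK-kd 9 and 16. Between the region at its left end and the first member, few peaks were called in any line. No region there was called in more than 3 libraries, and FAK-/- replicate 2 had none. Whether any reads of the FAK-nls libraries fall in this stretch cannot be read from peak lists, so a closed stretch and one absent from these libraries cannot be told apart. Right next to it, the Glud1 promoter, that of glutamate dehydrogenase, was called in all 8 libraries, with 5.23 and 6.67 in FAK-nls and 6.05 to 7.19 in the others. The other lines, with 33, 72 and 42 such regions in all, had at most 2 in 1 stretch free of their own peaks.

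**Figure D4:**
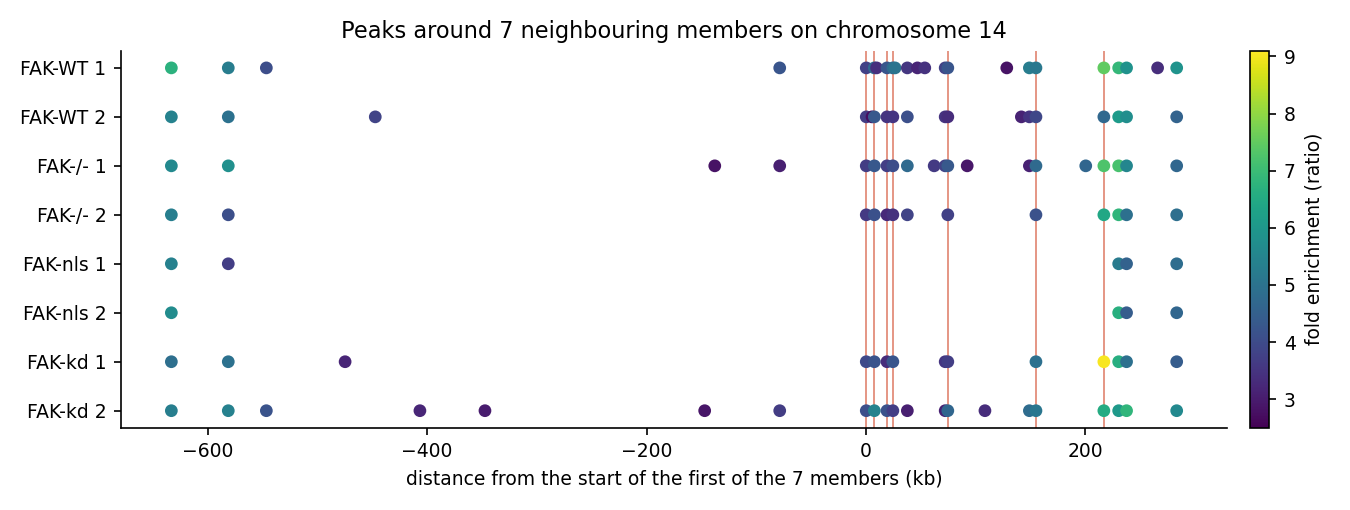
Peaks of each library (points, coloured by fold enrichment) by distance from the first of 7 neighbouring members on chromosome 14, whose positions are the red lines. All 6 other libraries have peaks at the 7 positions, and both FAK-nls libraries have none over 811 kb, with peaks again at the Glud1 promoter. In the part of this stretch left of the first member the other libraries also have few peaks.

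The next longest runs held 4 members each. One of them, with no FAK-nls peak inside, was on chromosome 2 around Prrx2, a homeobox gene of mesenchyme, and Ptges, the prostaglandin E synthase (chr2:30864753-30918346). Another without a FAK-nls peak was on chromosome 17 (chr17:13920698-14173251), inside 404.6 kb free of them. By the ranks of their members, the other named runs were near Gm14036 on chromosome 2, which had 1 FAK-nls peak inside, and at chr15:62500200-63061352, which had 2. Per gene, the most members with the same nearest start site were 5, at Mical2, an actin-oxidizing enzyme, of 15 regions called in the 6 libraries there.

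The AP-1 motif TGAGTCA, searched on both strands in the central 500 bp, was in 45.5% of members (1302 of 2860, Wilson 95% interval 43.7 to 47.3), 33.3% of regions called in all 8 and 35.3% of all regions. The shuffled string ACTGAGT was in 10.4%, 9.02% and 10.4%. In the central 200 bp the AP-1 share was 28.7% against 19.9% of regions called in all 8. The order turned with place. Outside promoters the motif was in 50.5% of members (48.4 to 52.5), 56.1% of regions called in all 8 (55.1 to 57.2) and 41.6% of all regions, and in 50.6% (48.8 to 52.5) of the regions also called in 1 FAK-nls library, close to members. Within promoters it was in 25.5% of members and 9.91% of regions called in all 8. The order turned again within classes of strength. Outside promoters, members had the motif more often than regions called in all 8 in the 4 weaker classes (42.8% against 38.7%, 51.4% against 46.4%, 56.1% against 52.7% and 62.6% against 57.6%) and less often in the strongest (27 of 45 against 67.9% of 2776). The Wilson intervals overlapped in each class. The AP-1 share rose with strength in both sets, apart from the strongest members.

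The CTCF motif was scarcer. Outside promoters it was in 4.44% of members (3.68 to 5.37), 2.04% of regions called in all 8 (1.77 to 2.35) and 5.74% of all regions. It was in 3.68% (3.05 to 4.43) of the regions also called in 1 FAK-nls library, an interval that overlapped that of members. Of the regions outside promoters called in the 6 libraries, 102 of the 393 with the CTCF motif were missing in FAK-nls (Wilson 95% interval 21.9% to 30.5%), against 15.8% of the 13846 without (15.2% to 16.5%). The CTCF share of members was the higher in the 4 weaker classes (5.37% against 2.72% in the weakest). The Wilson intervals were apart in the weakest class and overlapped in the next 3. In the strongest class it was 0 of 45, which allows a share of up to 6.67% by a limit of 3 counts. The Wilson interval of this share reached 7.865%. With an equal number of peaks per library, the share outside promoters was 4.34% of the regions missing only in FAK-nls and 1.90% of those called in all 8, while AP-1 was in 57.2% and 59.1%. With the common floor CTCF was in 3.34% (2.19 to 5.05) and 2.12% (1.79 to 2.502), with overlapping intervals, and AP-1 in 52.0% and 56.5%. None of the strings searched holds another. Among the other motifs outside promoters, ETS (GGAAGT) was in 33.0% of members and 31.5% of regions called in all 8, TEAD (ACATTCC) in 10.2% and 11.3%, RUNX (TGTGGTT) in 14.6% and 17.7%, and C/EBP (TTGCNNAA) in 19.8% and 22.6%. All regions outside promoters had these at 30.7%, 10.1%, 15.6% and 20.6%. A match to these letters is a description of the sequence and not evidence of binding.

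**Figure D5:**
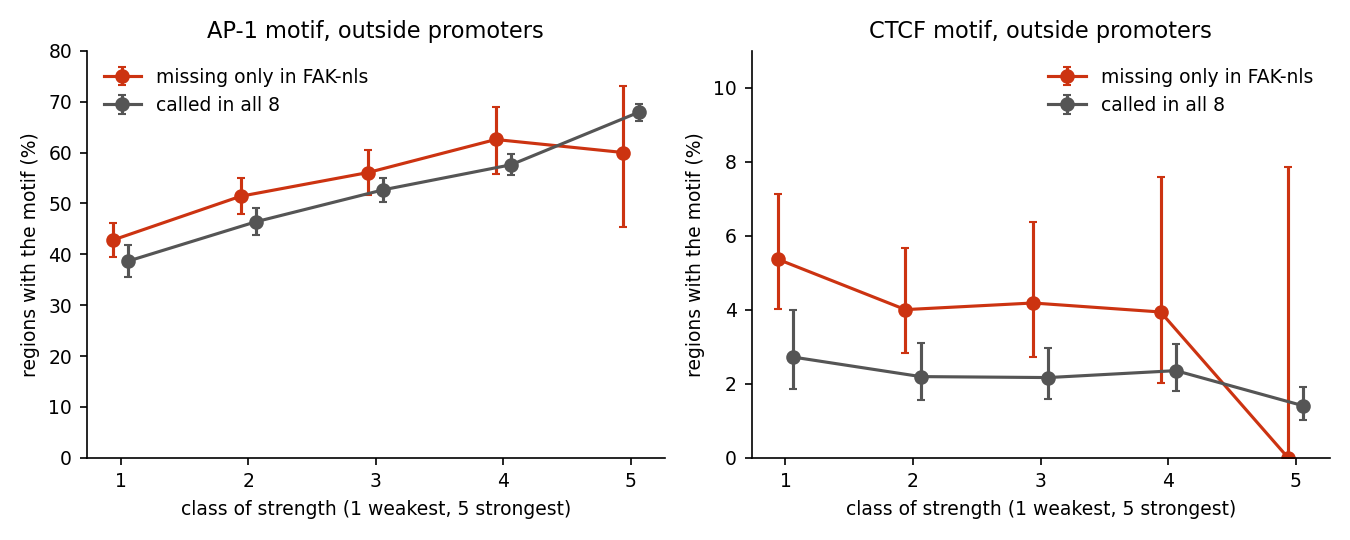
Percent of regions outside promoters with the AP-1 (left) or CTCF (right) motif in the central 500 bp, by class of strength, for members and for regions called in all 8, with Wilson 95% intervals. Both motifs are more frequent in members in the 4 weaker classes, and the strongest class has only 45 members.

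Genes of 12 lists were examined for members in the gene or within 10 kb upstream, against the 11.5% of all regions called in the 6 libraries. Each list's Wilson interval held that background, so the counts describe where members fell and set no list apart. Of 87 regions at FAK, integrin and focal adhesion genes 5 were members, among them regions in introns of Itgav, the integrin alpha V subunit, and Tns1, a tensin, and in promoters of Itgb5 and Pxn (paxillin). The Itgav region had a fold enrichment from 3.36 to 4.29 and a pileup of up to 32.4 reads, and the Pxn promoter one from 2.75 to 3.89. Of 21 regions at nuclear FAK targets and partners none was a member, which by the limit of 3 counts allows a share of up to 14.3%.

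Among the transcription factors, 4 of 27 regions at AP-1 genes were members, 2 of them at Atf3, a stress-induced factor, 1 at Batf and 1 within 10 kb upstream of Junb, nearest to the start of Hook2. Of 43 regions at ETS genes 3 were members, at Erg, Ets1 and Spi1. The Ets1 region ran from 3.30 to 5.32, with FAK-kd replicate 1 lowest and FAK-WT replicate 1 highest. At cytokine and chemokine genes 2 of 16 were members. One was the promoter of Ccl2, a monocyte chemoattractant, which also lies within 10 kb upstream of Ccl7 and stood at 3.84 and 3.38 in FAK-WT, 3.90 and 3.39 in FAK-/- and 3.23 and 4.60 in FAK-kd. The other was upstream of Il24.

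At genes of epithelial-mesenchymal transition 6 of 26 were members. Among them were 3 of the 3 regions at Zeb2, a repressor of E-cadherin, and 1 each at S100a4 and Zeb1. The strongest Zeb2 region, upstream of the gene, had 5.45 and 5.56, 4.82 and 5.05, and 4.87 and 5.74. At YAP, TAZ and TEAD genes 7 of 41 were members, 2 at Wwtr1 (TAZ) and 1 each at Amotl2, Amotl1, Tead1, Tead2 and Ankrd1, a YAP target. At EGF receptor family genes 6 of 30 were members, 5 of them among the 12 regions of Nrg1 (neuregulin 1) and 1 in Egfr. The counts were 4 of 51 for the TGF-beta pathway (Ltbp1, Smad3, Tgfb3), 2 of 21 for p53 (Phlda3, Bbc3) and 1 of 30 for Notch and Wnt (Notch2). Keratinocyte identity genes had 0 of 8, which by the same limit allows up to 37.5%.

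The rule asks the same of FAK-WT, FAK-/- and FAK-kd and does not compare them, so differences among these 3 lines were tested. It does bound them, since a region too weak to be called in any 1 of the 6 libraries is no member. Relative to regions called in all 8, the median member stood at a log2 difference of -0.27 ± 0.046 in FAK-WT, -0.28 ± 0.008 in FAK-/- and -0.32 ± 0.020 in FAK-kd (SD, n = 2). Lines accounted for 0.505 of the variance between libraries, and an exact permutation test over the 15 divisions of 6 libraries into 3 pairs gave p = 0.400, with 0.0667 the smallest p it allows, so this design could not reach 0.05. The share was 0.262 without FAK-kd replicate 2, 0.776 without FAK-WT replicate 1 and 0.908 without FAK-WT replicate 2.

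Region by region, limma on log2 fold enrichment called few differences anywhere. The labels do not say that replicates were separate cultures, so its p-values measure the spread between these libraries, and the 3 comparisons share libraries. Between FAK-WT and FAK-/- it called 1 of the 24772 regions higher in FAK-WT (0.00404%) and 0 lower (0%) at an adjusted p of 0.05, and 0 members. At an unadjusted p under 0.05, 140 members were higher in FAK-WT and 145 lower, against 935 and 1055 of all regions. Without centring these counts were 214 and 27, against 1182 and 117 of all regions. With pileup in place of fold enrichment they were 105 and 255, against 1517 and 1670. The median log2 difference in centred fold enrichment was -0.01 over members and -0.01 over all regions. With pileup it was -0.10 over members and -0.02 over all regions, and this gap was not tested. The lowest adjusted p among members was that of a region upstream of Tnr, the gene of tenascin-R. Its fold enrichment was 8.84 and 6.998 in FAK-WT, 3.84 and 4.05 in FAK-/- and 3.99 and 7.32 in FAK-kd, a log2 difference of 0.88 ± 0.18 (SE) between FAK-WT and FAK-/- with an adjusted p of 0.201 in limma. The 2 groups compared did not overlap, but the FAK-kd replicates spanned most of the range between them.

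Between FAK-WT and FAK-kd limma called 3 regions higher in FAK-WT (0.0121%) and 1 lower (0.00404%), and 1 of these 4 was a member. It lay between genes on chromosome 15 (chr15:64501330-64502727), 105649 bp downstream of the start of Gm30563. Its fold enrichment was 7.19 and 6.13 in FAK-WT, 4.67 and 4.20 in FAK-/- and 3.19 and 3.42 in FAK-kd. It was higher in FAK-WT by 0.96 ± 0.15 on the log2 scale (SE, adjusted p = 0.0382 in limma), and the 3 lines did not overlap. The call was lost without any 1 of the 6 libraries, with the number of members called then 0, and without centring. A member in an intron of Pls3 (plastin 3, an actin-bundling protein), with 7.24 and 6.54 in FAK-WT and 3.89 and 3.92 in FAK-kd, had an adjusted p of 0.160 in limma. At an unadjusted p under 0.05, 185 members were higher in FAK-WT and 96 lower, against 930 and 771 of all regions. Without centring these counts were 158 and 29, against 643 and 154 of all regions.

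Between FAK-kd and FAK-/- limma called 0 regions higher in FAK-kd (0%) and 2 lower (0.00807%), and 0 members. At an unadjusted p under 0.05, 67 members were higher in FAK-kd and 222 lower, against 761 and 1086 of all regions. The direction of these counts turned without centring, with 93 higher and 69 lower, against 632 and 258 of all regions. With centring the median log2 difference was -0.02 over members and 0.01 over all regions. Without it, the medians were 0.046 over members and 0.076 over all regions. With pileup they were -0.094 and -0.002. Members had the lower median in each of these settings, and this gap was not tested. The lowest adjusted p among members, 0.183 in limma, was shared by regions near Gm49739, Gm26263 and Gm9174. The first, in an intron on chromosome 16, had 6.01 and 6.10 in FAK-/- and 3.798 and 3.68 in FAK-kd, with FAK-WT at 6.53 and 5.79. Its FAK-kd values lay below the other 4, as did those of a member on chromosome 1 near Gm26263 with 3.85 and 3.77 in FAK-kd and 5.69 to 6.32 elsewhere. With pileup in place of fold enrichment limma called 5, 6 and 6 members in the 3 comparisons, of 120, 83 and 91 regions in all.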

How the data were processed

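ATAC-seq was done on 4 SCC lines with 2 biological replicates each. The authors aligned reads to mm10 with the bcbio pipeline and called broad peaks in each library separately with MACS2 (2.1.1 per the submitters' processing notes, q threshold 0.05, shift -100, extension size 200, no control). The deposited lists give pileup (coverage signal), fold enrichment (a ratio of pileup to local background, each with 1 added), −log10 p-value and −log10 q-value, all averaged over a broad peak. No scaling between libraries is stated.

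Autosomal, X and Y peaks were merged across libraries, and a region took the highest value of its peaks. Background coverage of a library was the 1st percentile of (pileup + 1)/fold enrichment − 1. limma 3.58.1 (R 4.3.3, trend, Benjamini-Hochberg over 24772 regions) was run on log2 fold enrichment centred on the median of each library, all 6 libraries outside FAK-nls in one fit, and tested on simulated data. Shares carry Wilson 95% intervals, which cover counting error only and treat regions as independent.

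The members, gene lists and motifs were chosen with earlier results of these data known. Named members were the 12 strongest, the 10 strongest in promoters of protein-coding genes, the longest runs, up to 4 genes per list and those of lowest adjusted p per comparison. Genes beyond 4 in the YAP and adhesion lists, the Stx6, Ccser2 and Mical2 regions and the runs at Prrx2 and on chromosome 17 were named after their values were seen. Alternatives covered peak threshold, width, number and merging, the measure, scaling, promoter and motif windows, and left-out replicates. Some genes of the lists are not reported here.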

Additional observations from a re-analysis of the deposited data

How the results depend on the processing

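The number of regions missing only in FAK-nls was 2770 to 2859 with a minimum −log10 q of 3, peaks of 500 bp, at least 50% of the region covered, autosomes only or peaks within 100 bp merged. It was 415 with equal peak numbers and 866 with a common floor of pileup over background (added after the data were seen), and 2884 to 5027 when 1 replicate was left out, the highest being 4688 without FAK-nls replicate 1 and 5027 without replicate 2. The ratio of member to all-8 median was 0.610 by pileup, 0.612 by −log10 p, 0.852 with a minimum −log10 q of 3, 0.921 with equal peak numbers and 0.806 to 0.853 without 1 replicate, and stayed below 1 in each. The share missing in the strongest class was 0.121% with strength by −log10 p, 0.605% by pileup over background, 1.40% outside promoters and 0.846% to 3.61% without 1 replicate (settings added after the data were seen), and 1.46% without FAK-kd replicate 1. The promoter share was 18.1% within 1000 bp of a start site, 16.1% for protein-coding genes, 32.1% with a minimum −log10 q of 3, 16.6% with equal peak numbers and 18.4% to 23.5% without 1 replicate. The AP-1 share was 28.7% in 200 bp, 55.8% in whole regions, 50.5% outside promoters, 41.8% with a minimum −log10 q of 3, 55.2% with equal peak numbers, 10.4% for the shuffled string and 43.7% to 45.7% without 1 replicate. Why these values moved was not tested.

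The share of variance between lines was 0.262 without FAK-kd replicate 2 to 0.908 without FAK-WT replicate 2. With pileup, limma called 5 members for FAK-WT against FAK-/-, 6 for FAK-WT against FAK-kd and 6 for FAK-kd against FAK-/-. Without centring it called 0 for FAK-WT against FAK-kd. Without 1 replicate it called 0 to 1 members for the first, 0 for the second and 0 to 1 for the third (0 to 8, 0 to 3 and 0 to 3 of all 24772 regions), the single calls arising without FAK-kd replicate 2 and without FAK-kd replicate 1. The labels give same-numbered replicates only a number in common. Correlations of their deviations over regions, among the lines outside FAK-nls, were 0.0872, -0.202 and -0.0435. Whether they shared any handling cannot be read from these. With a replicate block limma called 0, 1 and 0 members (1, 5 and 2 of all 24772 regions), and the share of variance between lines was 0.646 (exact permutation p = 0.5, smallest possible 0.167). A region without a call has no value, so weak signal below the threshold in FAK-nls cannot be told apart from none.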
